A study of Mus musculus with 6 samples.

Results

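The janus kinases Jak1 and Jak2, the transcription factors Stat3, Stat5a, Stat5b and Stat6, and the feedback inhibitors Socs1, Socs2, Socs3 and Cish were followed in lung endothelial cells (ECs) of WT and leene-KO mice. These 10 genes were taken by name from a list made with earlier results of these data known, and the rule used no measured value. They are 10 of the 47729 genes in the count tables, and all 10 were among the 14625 genes with enough counts to be tested. None of the 10 passed an adjusted p of 0.05 between KO and WT. Socs3, Stat3 and Socs2 were lower in every KO library than in any WT library, by 0.34 to 0.52 on the log2 scale. Such a separation was seen in 9.2% of all genes tested. Jak1 and Jak2 overlapped between the genotypes.

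All mice were male, 14 weeks old and fed normal chow, and all carried an osmotic pump that delivered angiotensin II (AngII), a peptide that raises blood pressure, at 1000 ng/kg/min for 2 weeks. The KO mice, on a C57BL6 background, lacked in every cell the region that holds leene, the mouse counterpart of the human long noncoding RNA LEENE, and the WT mice did not. PolyA RNA of 3 WT and 3 KO libraries was sequenced, and no group without AngII was included, so the values give a genotype difference under AngII only. The labels call the material CD31-enriched cells, the methods describe a sort on CD144, and the labels describe cells of 3 mice per group as pooled, so it is not settled whether a library is 1 mouse or a pool. The p-values therefore measure the spread between libraries, which may in part be technical. The leene transcript itself was not analysed here, since the annotation used for counting does not list it.

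Libraries held between 24464324 and 35184063 counts. Mitochondrial genes took 37.4% to 54.5% of the counts, the highest share being in WT replicate 3. Levels are given as CPM, counts scaled to a common library size with TMM, a normalisation that sets the bulk of genes equal between libraries, so 1 CPM stood for 21.4 to 40.9 counts. The EC markers Pecam1 and Cdh5 were detected in every library, Pecam1 at 313, 440 and 582 CPM in WT and 563, 379 and 449 CPM in KO. Cdh5, which encodes the CD144 of the sort, varied more, at 178, 365 and 578 CPM in WT and 753, 340 and 499 CPM in KO. Kdr, a VEGF receptor and another EC marker, was higher in each KO library (log2 difference 0.87 ± 0.24 SE, edgeR adjusted p = 0.313). Markers of other cells were detected too, with Sftpc of alveolar type II cells at 2051, 24029 and 7562 CPM in WT and 19809, 23835 and 19840 CPM in KO. The sum of 5 alveolar type II markers was 4934, 46390 and 14404 CPM in WT replicates 1, 2 and 3 against 36566 to 44951 CPM in KO. In such bulk RNA, fewer cells of a type and less RNA per cell cannot be told apart.

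JAK kinases sit on the inner end of cytokine receptors and phosphorylate STAT proteins when a ligand brings the receptor chains together. STAT dimers then enter the nucleus and bind DNA at a palindrome that starts with TTC and ends with GAA. Among the genes they switch on are those of the SOCS family and Cish, whose proteins bind the receptor or the kinase and shut the signal off. In ECs, JAK-STAT signalling carries the responses to the interleukin-6 family, to interferons and to interleukin-4 and interleukin-13. STAT activity depends on phosphorylation, which RNA-seq does not measure.

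The STAT motif was sought on both strands from 250 bases before to 50 bases after each RefSeq start (GRCm38.p6), where 9 of the 10 genes matched and Socs2 had no entry. The form TTCNNNGAA, which reads the same on both strands, was present in 8.30% of all 32851 such promoters and in those of Socs3 and Cish, 2 of the 9 genes, a gene being counted if any of its starts held it. The form with a longer spacer, TTCNNNNGAA, known as the preference of STAT6, was present in 6.95% of all promoters and in 0 of the 9. The sequences are shown because the feedback genes are both members of the pathway and products of it. Capitals mark the motif. The Socs3 stretch lies at chr11:117969452-117969616 on the minus strand, before the RefSeq start and outside annotated exons, with the motif's first base at -154 from the start. The Cish stretch lies at chr9:107296659-107296688 on the plus strand, begins at the RefSeq start and holds 2 copies of the motif.
Socs3: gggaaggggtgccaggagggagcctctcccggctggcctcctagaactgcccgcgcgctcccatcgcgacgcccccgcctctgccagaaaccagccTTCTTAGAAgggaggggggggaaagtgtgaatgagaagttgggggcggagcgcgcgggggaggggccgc
Cish: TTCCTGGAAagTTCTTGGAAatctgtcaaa
A match is a description of these letters and not a measured binding site. Socs3 and Cish, both with the motif, had log2 differences between KO and WT of -0.52 and -0.23, and Stat3, without it, of -0.41.

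The 10 genes spanned a 32.5-fold range once levels were divided by the summed exon length in the count tables. Jak1 was the highest at a mean of 30.8 CPM per kilobase over the 6 libraries, and Socs1 the lowest at 0.947 CPM per kilobase. Between them came Stat6 at 12.6, Stat3 at 11.1, Jak2 at 8.62, Stat5b at 6.87, Socs3 at 5.25, Cish at 3.77, Socs2 at 2.91 and Stat5a at 1.10 CPM per kilobase. Jak1 lay above Stat6 and Socs2 above Stat5a in every library without overlap of their ranges. In the other 7 of the 9 neighbouring pairs the ranges over the 6 libraries overlapped. Within single libraries, Stat3 stood above Jak2, Jak2 above Stat5b and Stat5a above Socs1 in all 6. Stat6 stood above Stat3, Stat5b above Socs3, Socs3 above Cish and Cish above Socs2 in 5 of the 6, so these orders did not hold in every library. Jak1 was therefore the most abundant of these transcripts per length. The Stat5b level was 6.25 times that of Stat5a.

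**Figure D1:**
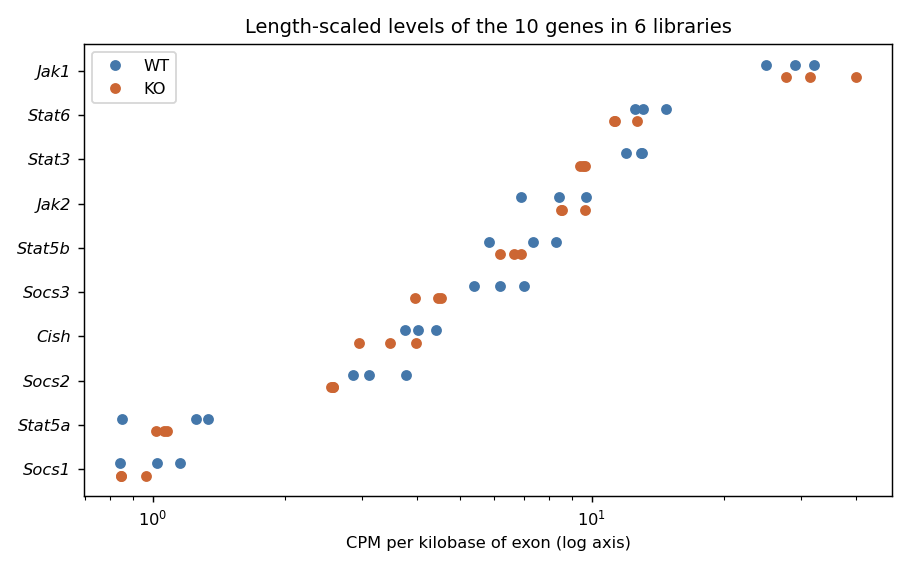
Level of each of the 10 genes in CPM per kilobase of exon on a log axis, with 1 point per library (blue WT, orange KO, 3 libraries each). Jak1 stands above all other genes, and Stat5a and Socs1 lie together at the low end near 1 CPM per kilobase.

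Between KO and WT, 0 of the 10 genes passed the adjusted threshold in edgeR's quasi-likelihood test, and DESeq2 also called 0. The same test called 16 of all 14625 genes (0.109%), 11 of them lower (0.0752%) and 5 higher in KO (0.0342%). At an unadjusted p under 0.05, 3 of the 10 were lower in KO (Socs3, Stat3 and Socs2) and 0 were higher, beside 4.68% and 5.62% of all genes tested (10.3% in either direction). The same 3 genes were those whose groups did not overlap in the direction of lower KO values, as was the case for 9.2% of all genes, while 8.59% had every KO library higher (17.8% in either direction). By the fit, 8 of the 10 had a lower and 2 a higher KO value, with a median log2 difference of -0.19 against 0.03 over all genes.

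**Figure D2:**
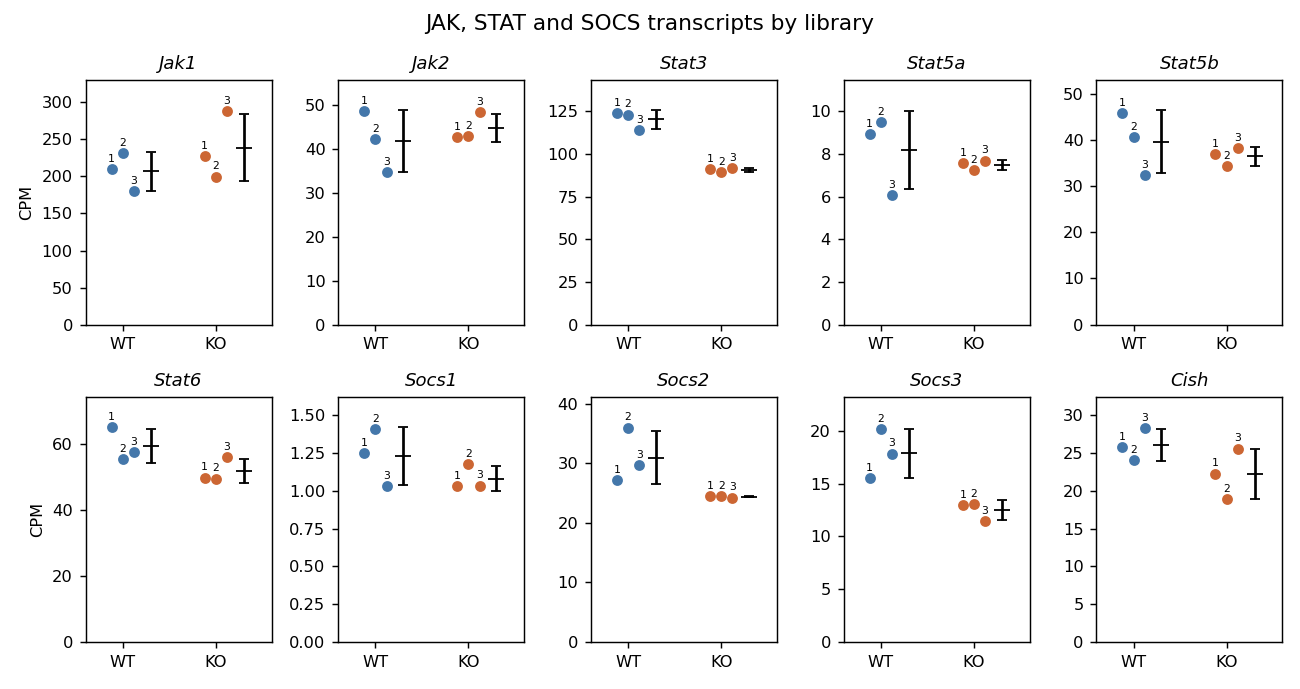
Level of each gene in CPM in the 3 WT (blue) and 3 KO (orange) libraries, numbered by replicate, with the group mean and SD beside the points and every axis starting at 0. For Stat3, Socs2 and Socs3 all KO points lie below all WT points, and for the other 7 genes the groups overlap.

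Of the kinases, Jak1, which serves receptors of the interleukin-6 family, the interferons and the common gamma chain, was at 209, 232 and 180 CPM in WT and 227, 200 and 288 CPM in KO (gene at chr4:101152367-101265282, minus strand). KO replicate 3 was the highest of all and the groups overlapped. The log2 difference was 0.20 with a standard error (SE) of 0.20 (adjusted p = 0.713). Jak2, which serves the growth hormone, erythropoietin and interferon-gamma receptors, was at 48.7, 42.3 and 34.7 CPM in WT and 42.8, 43.0 and 48.5 CPM in KO (chr19:29251828-29313080, plus strand). The WT values spanned the KO values. Its log2 difference was 0.09 ± 0.15 (SE, adjusted p = 0.834) and turned to -0.045 without WT replicate 3 and to -0.11 with total-count scaling, so no direction can be given for Jak2.

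Of the transcription factors, Stat3, the STAT of the interleukin-6 family, was the one whose groups did not overlap. WT libraries held 124, 123 and 114 CPM and KO libraries 91.0, 89.6 and 91.9 CPM (chr11:100885098-100939540, minus strand). The 3 KO libraries lay close together, and the lowest WT library stood above them. The means were 120 ± 5.45 and 90.8 ± 1.16 CPM (SD, n = 3 each), a KO to WT ratio of 0.755. The KO SD was smaller than the 1.86 CPM that counting error alone gives, so it understates the error. The SE below combines the gene's own spread with a spread estimated across genes. The log2 difference was -0.41 with an SE of 0.12 (edgeR, unadjusted p = 0.0118, adjusted p = 0.365). Leaving out each library in turn gave -0.46 to -0.39, with an unadjusted p under 0.05 in each of these fits and the lowest adjusted p, 0.112, without WT replicate 2.

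Stat6, the STAT of interleukin-4 and interleukin-13, was at 65.0, 55.3 and 57.5 CPM in WT and 49.7, 49.4 and 55.8 CPM in KO (chr10:127642986-127660957, plus strand). KO replicates 1 and 2 were below all WT libraries, and KO replicate 3 was within their range. The log2 difference was -0.20 ± 0.13 (SE, adjusted p = 0.601).

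Stat5a and Stat5b are neighbouring genes on chromosome 11 that encode closely related STATs of growth hormone, prolactin and interleukin-2. Stat5a was at 8.93, 9.51 and 6.09 CPM in WT and 7.56, 7.25 and 7.69 CPM in KO (chr11:100859351-100885169, plus strand). Stat5b was at 45.8, 40.6 and 32.3 CPM in WT and 36.9, 34.2 and 38.3 CPM in KO (chr11:100780731-100850724, minus strand). In both genes WT replicate 3 was the lowest of the 6 libraries and WT replicates 1 and 2 were the highest, so the KO values lay between the WT values. The log2 differences were -0.13 ± 0.20 and -0.12 ± 0.15 (SE, adjusted p = 0.821 and 0.782). Of the stretches of 50 bases, the read length, in their transcripts, 8.52% for Stat5a and 11.0% for Stat5b were shared with another gene, nearly all between this pair, and reads from such stretches were dropped at counting.

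Of the inhibitors, Socs3, which blocks the gp130 chain of interleukin-6 receptors and Jak kinases, had the smallest p of the 10 genes. WT libraries held 15.5, 20.2 and 17.8 CPM and KO libraries 12.9, 13.1 and 11.4 CPM (chr11:117966079-117970047, minus strand). Every KO library was below every WT library. The means were 17.9 ± 2.33 and 12.5 ± 0.926 CPM (SD, n = 3 each), a ratio of 0.699. The log2 difference was -0.52 with an SE of 0.15 (edgeR, unadjusted p = 0.00876, adjusted p = 0.343). It ranked 373 of 14625 genes by p. Leaving out each library gave -0.61 to -0.45, with an unadjusted p under 0.05 in each of these fits.

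Socs2, the inhibitor of growth hormone receptor signalling, was at 27.2, 36.0 and 29.7 CPM in WT and 24.5, 24.5 and 24.2 CPM in KO (chr10:95385362-95417180, minus strand). The KO libraries differed by less than the counting error of 0.964 CPM, and WT replicate 2 stood above the other WT libraries. The means were 31.0 ± 4.52 and 24.4 ± 0.158 CPM (SD, n = 3 each), and the log2 difference was -0.34 with an SE of 0.14 (edgeR, unadjusted p = 0.0389, adjusted p = 0.470). Without WT replicate 2 it was -0.26 with an unadjusted p of 0.0745, and leaving out any of the KO libraries also took that p above 0.05. Of the stretches of 50 bases in Socs2 transcripts, 4.58% were shared with other genes, mostly with the pseudogene Gm9847.

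Cish, which binds the activated receptors of erythropoietin and interleukin-2 and is induced by STAT5, was at 25.8, 24.1 and 28.4 CPM in WT and 22.3, 18.9 and 25.6 CPM in KO (chr9:107296026-107302784, plus strand). KO replicate 3 lay within the WT range, so the groups overlapped. The log2 difference was -0.23 ± 0.15 (SE, adjusted p = 0.611). Of the stretches of 50 bases in Cish transcripts, 9.35% were shared with other genes when both strands were compared, mostly with Gm17041, which overlaps Cish on the opposite strand. Socs1, the inhibitor of interferon signalling, was the least abundant of the 10 at 1.25, 1.41 and 1.03 CPM in WT and 1.03, 1.18 and 1.03 CPM in KO (chr16:10783808-10785536, minus strand). The counts behind these levels were 51, 48 and 22 for WT and 24, 32 and 30 for KO. The log2 difference was -0.19 with an SE of 0.33 (adjusted p = 0.842), an error larger than that of any other of the 10 genes.

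**Figure D3:**
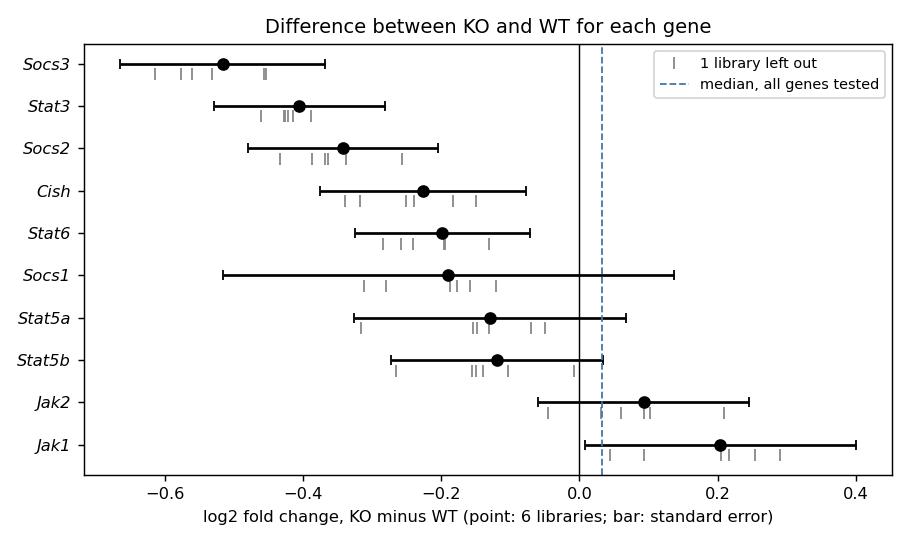
Fitted log2 difference between KO and WT for each gene (point) with its standard error (bar), the same fit with 1 library left out (grey ticks, 6 per gene), 0 (solid line) and the median of all genes tested (dashed line). The 3 genes at the top, Socs3, Stat3 and Socs2, keep every tick below 0, whereas the ticks of Jak2 fall on both sides.

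The profile of Socs3 over the 6 libraries, centred on the log2 CPM scale, was nearest to those of Gm4332, Pole4 and AI661453, with root mean square distances of 0.0402, 0.0415 and 0.0689 log2 units. Pole4, a subunit of DNA polymerase epsilon, was at 7.98, 10.2 and 9.13 CPM in WT and 6.75, 6.77 and 6.31 CPM in KO. Gm4332 lay below 1 CPM in every library, so its likeness to Socs3 rests on few counts.

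The rest of the kinase, STAT and SOCS families, listed together with Irf9, which belongs to none of them, showed small differences. Of 8 tested genes of 9 listed (Stat4 was too low to test), 0 were called and 1 (Stat2) had an unadjusted p under 0.05, 7 were lower and 1 higher in KO by the fit, and the median log2 difference was -0.13. Stat2 and Irf9, which act in the response to type I interferons, had the smallest p. Stat2 was at 25.4, 20.4 and 23.2 CPM in WT and 18.1, 18.7 and 19.1 CPM in KO, with no overlap (log2 difference -0.31 ± 0.13 SE, adjusted p = 0.482). Irf9 was at 35.9, 27.8 and 30.1 CPM in WT and 23.1, 26.0 and 27.1 CPM in KO, again with no overlap (-0.30 ± 0.14, adjusted p = 0.508). Socs7 and Socs4 came next, both with overlapping groups and log2 differences of -0.15. The promoters of Stat2 and Irf9 are shown because both genes hold the longer form of the motif (capitals), at chr10:128270278-128270307 and chr14:55603976-55604005 on the plus strand of GRCm38.p6.
Stat2: tcagtttcctTTCCCTAGAActcacggttc
Irf9: ggagataaccTTCCTGGGAAccagacacgg
This form, known as the preference of STAT6, was held by 2 of the 6 genes of this list, Irf9 included, that have a RefSeq promoter. The share of all promoters was 6.95%. The shorter form was held by 0 of the 6.

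Of 11 other inhibitors of the pathway (PIAS proteins, phosphatases, Cbl, Sh2b3 and Usp18), all were tested, 0 were called, 9 were lower and 2 higher, and the median log2 difference was -0.21. None reached an unadjusted p of 0.05. The genes with the smallest p were Pias3, which binds STAT3 and keeps it from DNA (-0.30 ± 0.13 SE), the phosphatases Ptpn1 (-0.31 ± 0.14) and Ptpn11 (-0.24 ± 0.17), and Usp18, which dampens interferon receptors (-0.38 ± 0.20). In these 4 genes, picked by p, the KO libraries lay below all WT libraries, as was the case for 9.2% of all genes. In 0 of the 11 did every KO library lie above the WT libraries. Ptpn1 was at 57.0, 55.1 and 51.0 CPM in WT and 50.3, 39.0 and 42.6 CPM in KO.

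The ligands were mostly too low to test in these cells, with 8 of 23 tested and 5 of 23 without a count in any library. Of the 8, 0 were called, 0 had an unadjusted p under 0.05 and the median log2 difference was 0.43. Csf2, which encodes the growth factor GM-CSF, came first at 0.0490, 0.646 and 0.702 CPM in WT and 1.42, 1.43 and 0.966 CPM in KO (log2 difference 1.50 ± 0.76 SE, adjusted p = 0.533). Its first WT value is 2 counts. Il7, Igf1 and Il15 followed with overlapping groups and log2 differences of 0.58, -0.34 and 0.45.

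The receptors leaned the other way from the STAT and SOCS genes. Of 27 tested, 22 were higher and 5 lower in KO by the fit, with a median log2 difference of 0.42 and 0 called. At an unadjusted p under 0.05, 5 were higher and 0 lower, beside 5.62% and 4.68% of all genes. Ghr, the growth hormone receptor, was at 42.2, 44.5 and 49.6 CPM in WT and 65.3, 60.2 and 60.0 CPM in KO (log2 difference 0.44 ± 0.12 SE, adjusted p = 0.318). Ifnar2, a chain of the type I interferon receptor, was at 21.4, 33.8 and 32.1 CPM in WT and 41.3, 41.1 and 45.5 CPM in KO (0.55 ± 0.18, adjusted p = 0.396). Lifr, which pairs with gp130 for leukemia inhibitory factor, was at 34.5, 59.0 and 51.1 CPM in WT and 71.5, 65.3 and 78.2 CPM in KO (0.57 ± 0.20, adjusted p = 0.428). In these genes and in Epor, the erythropoietin receptor (1.14 ± 0.40, adjusted p = 0.412, at most 2.90 CPM), each KO library exceeded each WT library. Of the 27 receptors, 6 were higher in KO without overlap and 0 lower, beside 8.59% and 9.2% of all genes.

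WT replicate 1 was the lowest of the 6 libraries in 20 of the 27 receptors and in 0 of the 10 JAK, STAT and SOCS genes. It was also the library with the lowest alveolar type II sum. Without it the receptor median was 0.21, and with the alveolar type II level as a term in the fit it was 0.12 (17 receptors higher, 10 lower). When WT replicate 2 was left out, the median was 0.66 and 5 receptors rose past the adjusted threshold (Il6st, Osmr, Il13ra1, Ifngr1 and Ifnar1, named after their values were seen). The receptor values thus moved with single WT libraries. Those of the 10 JAK, STAT and SOCS genes moved too, though less. WT replicate 3 was the lowest of the 6 libraries for Jak1, Jak2, Stat5a, Stat5b and, narrowly, Socs1. The median of the 10 was -0.29 without WT replicate 3 and -0.16 without WT replicate 1, beside -0.19 with all libraries. Ghr, for which WT replicate 1 was also the lowest library, had a log2 difference of 0.39 without it and of 0.42 (SE 0.14) with the alveolar type II term. For Socs3, Stat3 and Socs2 the log2 differences with that term were -0.67, -0.40 and -0.50, with adjusted p of 0.164, 0.322 and 0.236. The Ifnar2 promoter holds the shorter motif form (capitals) at chr16:91372559-91372588 on the plus strand of GRCm38.p6, and is shown as an example of a receptor with it. This form was held by 4 of 22 receptor genes with a RefSeq promoter, beside 8.30% of all promoters.
Ifnar2: tgccaaggccTTCCTGGAAgaagagagtac

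Of 18 genes listed as textbook targets of STAT3 and STAT5, all were tested, 14 were lower and 4 higher in KO, and the median log2 difference was -0.42. At an unadjusted p under 0.05, 8 were lower and 0 higher, beside 4.68% and 5.62% of all genes. In edgeR 0 passed the adjusted threshold, beside 0.109% of all genes. Cebpd, an acute-phase transcription factor induced through STAT3, was at 56.8, 59.8 and 68.0 CPM in WT and 16.3, 21.1 and 27.2 CPM in KO. The KO values lay far below the WT values, with means of 61.5 ± 5.81 and 21.5 ± 5.48 CPM (SD, n = 3 each). The log2 difference of -1.51 (SE 0.20) came close to the threshold (edgeR, adjusted p = 0.0524), and Cebpd was called by DESeq2 (adjusted p = 3.77e-08).

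Bcl3, an NF-kB cofactor, was at 13.7, 18.7 and 14.0 CPM in WT and 7.31, 8.02 and 8.55 CPM in KO (-0.96 ± 0.17 SE, adjusted p = 0.140). Cebpb, the partner of Cebpd, was at 35.0, 47.5 and 36.9 CPM in WT and 24.5, 23.0 and 21.5 CPM in KO (-0.79 ± 0.15, adjusted p = 0.176). Bcl2l1, which encodes the survival protein Bcl-xL, was at 80.3, 90.2 and 95.8 CPM in WT and 63.7, 60.0 and 61.9 CPM in KO (-0.52 ± 0.13, adjusted p = 0.283). In none of the 3 did the groups overlap. Of the 18 targets, 7 were lower in KO without overlap and 0 higher, beside 9.2% and 8.59% of all genes. DESeq2 called these 3 too, and no gene of the other pathway lists. The Bcl2l1 promoter holds the longer motif form, known as the preference of STAT6, at chr2:152828474-152828503 on the minus strand of GRCm38.p6. It is among 3 of 14 genes of this list with that form, beside 6.95% of all promoters. The shorter form was held by 2 of the 14, Bcl6 and Fgl2, beside 8.30% of all promoters. The log2 differences of Bcl6 and Fgl2 were 0.02 and 0.49, with overlapping groups.
Bcl2l1: tgagtgctttTTCTTCAGAAtcctgctcgc
It is shown because neither motif form was found in the promoters of Bcl3 and Cebpb, and Cebpd had no entry.

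**Figure D4:**
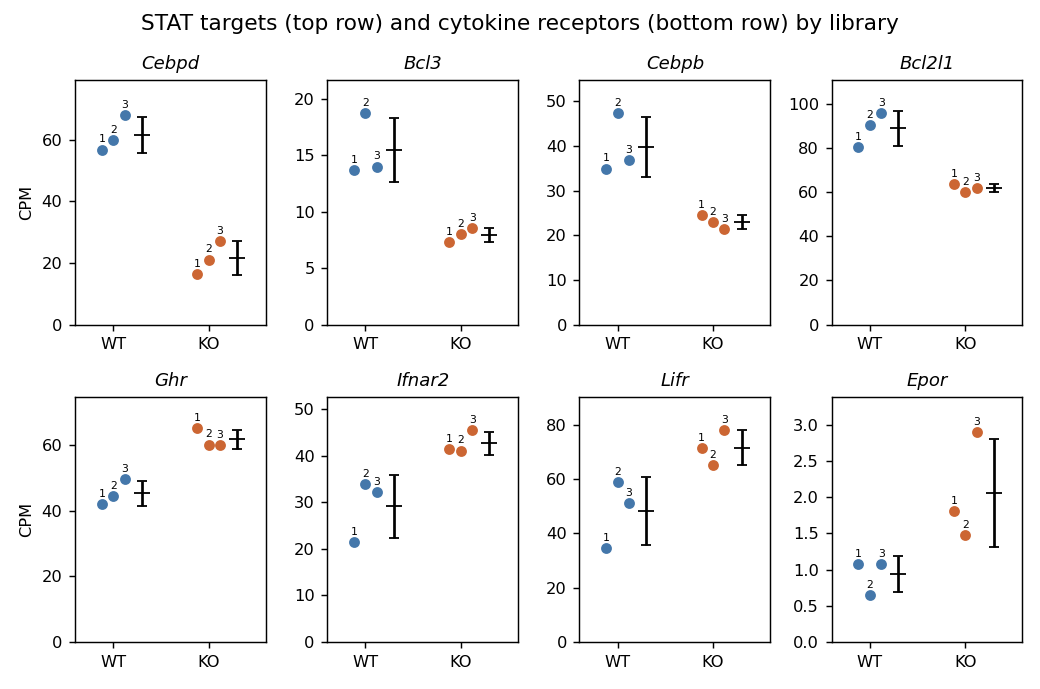
Level in CPM of the 4 STAT targets (top) and the 4 cytokine receptors (bottom) with the smallest p, by library, with the group mean and SD and axes from 0. All 4 targets are lower and all 4 receptors higher in the KO libraries without overlap, which a choice by p favours. Over the whole lists, 7 of 18 targets were lower and 6 of 27 receptors higher without overlap. The shares of all genes were 9.2% and 8.59%. WT replicate 1 is the lowest library for Ghr, Ifnar2 and Lifr.

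Heat shock genes and B cell markers also differed between the genotypes. Of 14 tested heat shock genes, all were lower in KO by the fit, with no overlap between groups in any, and 5 were called, with a median log2 difference of -1.33. Hsph1 fell from 97.9, 86.2 and 90.9 CPM in WT to 17.3, 22.8 and 21.0 CPM in KO (edgeR, adjusted p = 0.00990). Hspb1 was at 27.7, 27.7 and 27.3 CPM in WT and 11.4, 7.87 and 9.49 CPM in KO (edgeR, adjusted p = 0.0276). Hspa1b had a log2 difference of -3.37 (SE 0.31, edgeR, adjusted p = 0.0188). Reads that it shares with its near-identical copy Hspa1a were dropped at counting. Of 14 tested immediate early genes, 13 were lower and 1 higher, 8 of them lower at an unadjusted p under 0.05 and 0 called, with Atf3 first (-1.90 ± 0.27 SE, adjusted p = 0.0721), then Nr4a1 (-1.23 ± 0.23, adjusted p = 0.153) and Btg2 (-0.57 ± 0.16, adjusted p = 0.318). B cell markers summed to 11.9 to 25.9 CPM in WT and 90.1 to 92.5 CPM in KO, with 8 of 8 higher and 3 called (Ms4a1, Fcrla and Cd79a). These heat shock and B cell calls ended when any 1 of the KO libraries was left out and with the replicate block, since 0 of all genes were then called. T cell markers summed to 4.19 to 8.05 CPM in WT and 10.4 to 15.2 CPM in KO, with 8 of 8 higher, 5 of them at an unadjusted p under 0.05, and 0 called. The sums of the EC, macrophage, neutrophil and mesenchyme markers overlapped between groups. Over all genes, 0.0752% were called lower and 0.0342% higher in KO, and 4.68% were lower and 5.62% higher at an unadjusted p under 0.05. The groups lay apart in 9.2% and 8.59% in these directions. The part of these cells and of the heat shock and immediate early genes in the values of the JAK, STAT and SOCS genes and their targets was not tested.

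**Figure D5:**
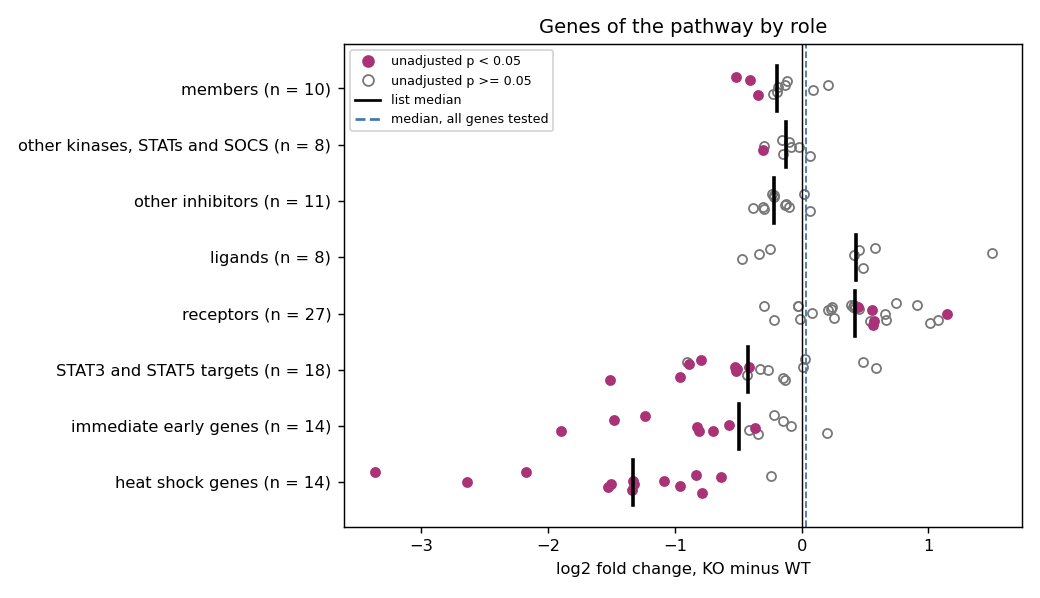
Fitted log2 difference between KO and WT for every tested gene of each list (filled points, unadjusted p under 0.05), with the list median (black bar) and the median of all genes (dashed line). The medians of the STAT targets, the immediate early genes and the heat shock genes lie at -0.42, -0.49 and -1.33, and those of the ligands and receptors at 0.43 and 0.42.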

How the data were processed

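PolyA RNA of 3 WT and 3 KO libraries was sequenced. For each library the authors deposited unnormalized read counts of every gene. Per the file headers, featureCounts 2.0.0 counted uniquely aligned reads over exons of GRCm38 (Ensembl release 84), in the reverse strand orientation. The submitters' processing notes name bcl2fastq 2.18, STAR 2.5.4b and Subread 2.0.0. Reads shared by near-identical genes are therefore lost.

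Counts were tested in R 4.3.3 with edgeR 4.0.16 (filterByExpr and TMM defaults, glmQLFit and glmQLFTest, genotype as the only term). Genes were called at a Benjamini-Hochberg adjusted p under 0.05 over the 14625 genes tested. With 3 against 3 libraries an exact permutation test cannot go below p = 0.1, so none is given. CPM was taken per TMM-scaled library, and each SD covers 3 libraries. Each edgeR SE is the absolute log2 difference divided by the square root of the test's F statistic. Levels per kilobase used the exon lengths in the count tables. Every pair of libraries differed by more than sampling noise. The fit was tested on simulated data. Symbols (47224 of 47729 genes) came from GENCODE's annotation of the same build, and promoters from RefSeq. Sharing of stretches of 50 bases was computed on GENCODE transcripts. Motif search, orders and figures used pandas 2.3.3, numpy 2.4.6 and matplotlib 3.10.9.

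Alternatives were DESeq2 1.42.0, which is the tool in the study's methods, scaling by RLE, by upper quartiles or by total counts, no filter, at least 10 counts in every library, a replicate block, an alveolar type II term (mean log2 CPM of Sftpc, Sftpb, Sftpa1, Sftpd and Lamp3) and each library left out in turn. The 10 genes, the lists and the tests were chosen with earlier results of these data known. All 10 genes were named, then from each pathway list any gene called and otherwise the 4 with the smallest unadjusted p, and from the other lists Pecam1, Cdh5, Sftpc and the 3 genes with the smallest p of the heat shock, immediate early and B cell lists. Kdr was named after its values were seen. The 3 profiles nearest to the gene with the smallest p were named as well. The TPM values named in the study's methods were not used here. A gene of the STAT family and a list of target genes are not reported here.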

Additional observations from a re-analysis of the deposited data

How the results depend on the processing

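Of the 10 genes, 0 were called in any of the 14 alternatives, and of the 140 values of their log2 differences under these alternatives 138 kept their direction. The exceptions were Jak2 with total-count scaling (-0.11) and without WT replicate 3 (-0.045, the lowest of a range up to 0.21 when a library was left out). Total-count scaling shifted the median of all genes from 0.03 to -0.13 and that of the 10 genes from -0.19 to -0.38, so that the latter lay 0.24 below the former in place of 0.23, and left 1 of the 10 (Socs3) at an unadjusted p under 0.05. Leaving out single libraries gave medians of -0.29 to -0.16 for the 10 genes. The number of all genes called, 16, became 185 with DESeq2, 26 with RLE scaling, 31 with upper-quartile scaling, 123 with total-count scaling, 152 without a filter and 49 with the alveolar type II term. It ranged from 0, without any 1 of the KO libraries, to 791 without WT replicate 2, of which 660 were higher in KO. The called genes of the pathway lists, 0 in the reported fit, were 4 with DESeq2 (Bcl3, Cebpb, Cebpd and Bcl2l1), 1 with RLE, upper-quartile and total-count scaling (Cebpd in each), 3 without a filter and 3 with the alveolar type II term (Bcl3, Cebpb and Cebpd in both), and 0 to 8 when a library was left out, the 8 being without WT replicate 2 (5 receptors and Bcl3, Cebpb and Cebpd). The cause of these shifts was not tested. Same-numbered libraries of the genotypes had correlations of their deviations of -0.08, 0.22 and 0.01, and 0.22 was the highest of any WT with any KO library. WT replicate 1 correlated best with KO replicate 3 and WT replicate 3 with KO replicate 1 (0.19 each). These values do not settle whether replicate numbers pair the libraries. The replicate block gave 0 called genes, with 1776 at an unadjusted p under 0.05 beside 1506 without it. Socs1 rests on 22 to 51 counts a library, and 8 of the 23 ligands had enough counts to be tested.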
